A study of Rattus norvegicus with 15 samples.

Results

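Carboxylesterases are serine hydrolases that cleave ester, amide and thioester bonds. Messenger RNA of 6 of them (Ces1c, Ces1d, Ces1e, Ces2a, Ces2c and Ces2e) was followed in the liver of 15 rats, of which 8 received fipronil and 7 the vehicle. Probes were chosen by gene name: every non-control probe whose gene name in the array files was a current or older symbol of 1 of these genes. Descriptions were not searched for members. These are 6 of 16637 genes named on the array. The rule found 8 of 41012 probes, 1 each for Ces2c, Ces2a, Ces2e and Ces1d and a pair each for Ces1e and Ces1c, and each probe had 1 spot per array. Another 10 probes were kept for comparison: other carboxylesterases by name, probes described only as similar to a carboxylesterase, and 1 neighbour with no annotation.

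All rats were females of the outbred Wistar strain Crl:WI, aged 2 to 3 months. Fipronil, a phenylpyrazole insecticide, was given daily by feeding needle as a suspension at 3 mg/kg/day for 14 days (n = 8). Control rats received by the same route the aqueous methylcellulose and Tween 80 solution used as vehicle (n = 7). Each array was hybridised with Cy3-labelled RNA of 1 liver, taken from fragments of the large lobe, so the data cover 1 sex, 1 dose and 1 time point.

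In liver, most carboxylesterases sit in the lumen of the endoplasmic reticulum of hepatocytes, where they hydrolyse ester drugs, prodrugs, pesticides such as pyrethroids, and stored lipid esters. Rodents carry expanded clusters of the Ces1 and Ces2 subfamilies, whose closely related sequences make single genes hard to tell apart. Enzymes of the Ces1 type tend to prefer substrates with a small alcohol group and those of the Ces2 type substrates with a large one. In rodent liver, several Ces2 genes are known to respond to activators of CAR and PXR, nuclear receptors that sense drugs and other foreign compounds.

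Signal is given throughout as the log2 processed spot intensity relative to the 75th percentile over the non-control probes on the same array. Levels of different probes are not comparable on this scale, and differences are fipronil minus vehicle. Arrays of fipronil rats were brighter: their 75th percentile was 209.9 ± 25.8 intensity units, against 171.5 ± 33.3 in vehicle rats (SD, n = 8 and 7; exact permutation test, two-sided, p = 0.0196, adjusted p = 0.0261 over 3 array measures). Saturated probes numbered 168.4 ± 16.9 per array in fipronil rats and 134.4 ± 26.8 in vehicle rats (exact permutation adjusted p = 0.0261). The share of probes well above background was 57.02 ± 1.24% in fipronil rats and 54.96 ± 2.18% in vehicle rats (exact permutation adjusted p = 0.0261). Values from a fit that included array brightness are therefore given beside the results for the Ces2 members. The arrays lay on 4 slides, each of which held rats of both groups. In the liver, Alb, Ttr and Serpina1, which encode plasma proteins made by hepatocytes, were saturated on all 15 arrays.

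Fipronil rat 1 and vehicle rat 7 stood apart from all other rats at the Ces2e probe, so each result that rests on Ces2e is given with and without them. Both gave low signal there, in opposite treatment groups, while their Ces2c and Ces2a signals lay within their groups. Vehicle rat 7 also had the dimmest array, with a 75th percentile of 115.4 intensity units.

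The promoters of Ces2c and Ces2e are shown because they align over most of their length, and these genes gave the largest and the least precise difference of the 6. They come from RefSeq (GRCr8, plus strand), run 5′ to 3′ and span 300 bases that end shortly after the transcription start. Capitals mark a nuclear receptor hexamer, AGGTCA or AGTTCA, on either strand. The Ces2c promoter lies at chr1:270376951-270377250 and that of Ces2e at chr19:163649-163948.
Ces2c: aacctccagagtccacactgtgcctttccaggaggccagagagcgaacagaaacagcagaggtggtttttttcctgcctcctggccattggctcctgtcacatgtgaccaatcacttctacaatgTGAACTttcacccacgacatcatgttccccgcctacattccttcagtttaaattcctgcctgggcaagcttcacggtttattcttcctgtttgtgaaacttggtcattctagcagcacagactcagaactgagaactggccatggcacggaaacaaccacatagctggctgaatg
Ces2e: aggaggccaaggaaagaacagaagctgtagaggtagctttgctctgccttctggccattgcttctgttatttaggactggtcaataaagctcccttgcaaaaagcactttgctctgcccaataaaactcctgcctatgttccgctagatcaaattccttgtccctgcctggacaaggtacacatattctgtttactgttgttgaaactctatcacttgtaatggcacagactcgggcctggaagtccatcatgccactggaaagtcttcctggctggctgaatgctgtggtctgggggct

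Ces2c held a single such hexamer, AGTTCA on the opposite strand (printed as TGAACT), which began 125 bases before the start. Ces2e held none. Over their alignable part the 2 promoters were identical at 195 of 256 positions (76.2%). That percentage was not particular to this pair. Among the other pairs of members it ran from 69.4% (Ces1d and Ces2c, 72 positions) to 88.9% (Ces1e and Ces2e, 36 positions). Ces1c and Ces1d aligned over 250 positions (78.4%). Of the 6 genes, 5 had a promoter to search, all but Ces2a. Of these 5, 3 held a hexamer: Ces2c, Ces1c (240 bases before the start) and Ces1e (9 bases into the transcript). Among 33469 rat promoters of the same length, 27.9% held at least 1 of them. Direct repeats of these hexamers spaced by 3 or 4 bases and everted repeats spaced by 6 bases occurred in 0 of the 5, and in 0.0418%, 0.0179% and 0.00598% of all promoters. A match of letters is a description and no evidence of binding.

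Both Ces2c and Ces2a rose strongly with fipronil. In a limma fit across 23259 probes, 2 of the 8 member probes, Ces2c and Ces2a, had an adjusted p under 0.05 and both were higher in fipronil rats. Across all probes tested, 191 were called (0.821%), of which 124 were higher (0.533%) and 67 lower (0.288%). By size of rise Ces2c ranked 6th and Ces2a 11th of all probes tested. The brighter probe of the Ces1c pair was saturated on all arrays. The remaining 7 had a median log2 difference of 0.23, beside -0.02 over all probes tested. In whole liver, fewer cells of a type and less RNA per cell cannot be told apart.

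**Figure D1:**
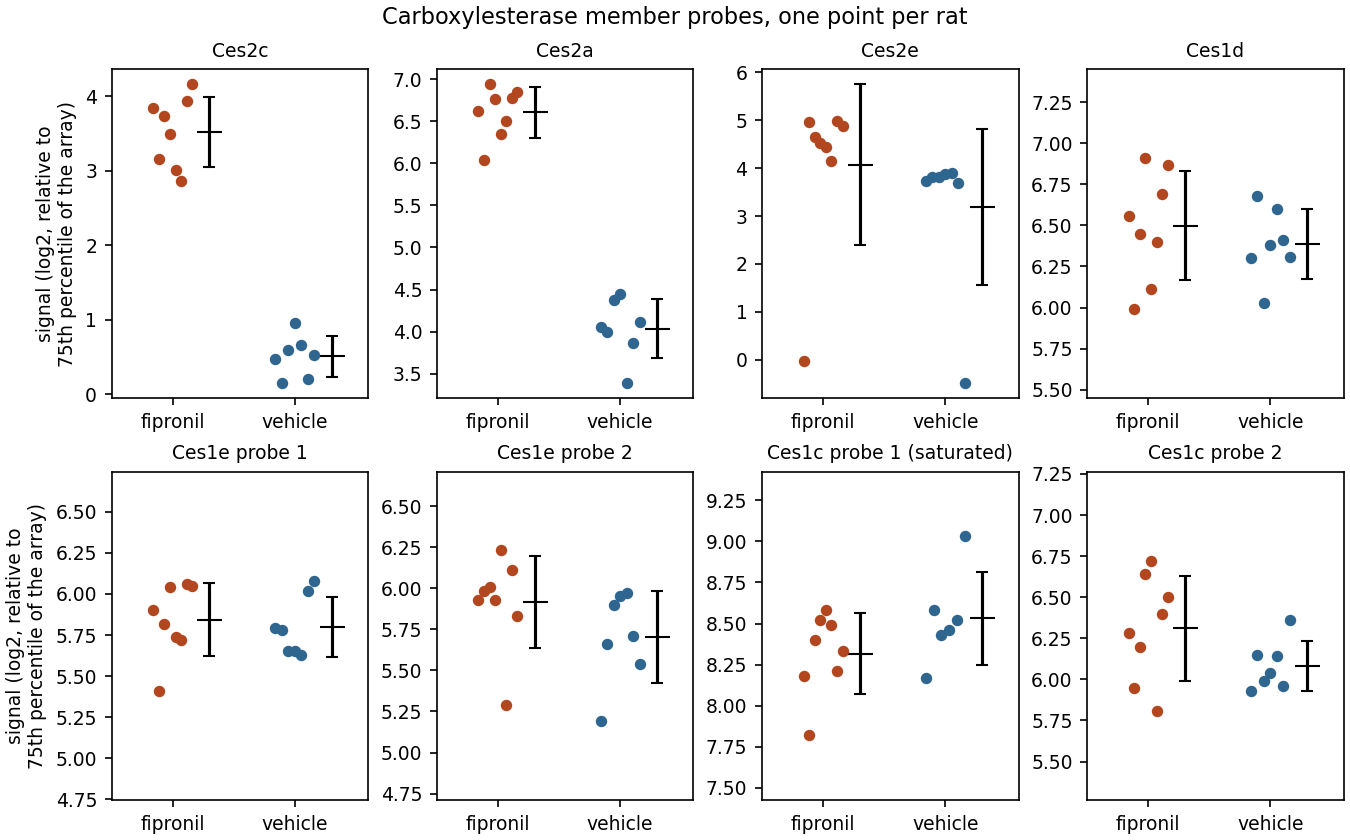
Signal of the 8 member probes in each rat (log2, relative to the 75th percentile of the array), with fipronil rats (n = 8) to the left of vehicle rats (n = 7). Each point is 1 rat, bars are mean and SD, and the range of the vertical axis differs between panels. At Ces2c and Ces2a every fipronil rat lies above every vehicle rat, and at Ces2e fipronil rat 1 and vehicle rat 7 lie far below the rest.

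Ces2c belongs to the subfamily of human CES2, the enzyme that activates the prodrug irinotecan, and mouse Ces2c hydrolyses glycerolipids. Its probe (Ces2 in the array design, NM_133586) lies on chromosome 1 at 267892271 to 267892585 of build rn4. That interval of 315 bases is wider than the probe, as for a probe placed across an intron. The lowest, median and highest Ces2c signals were 2.86, 3.61 and 4.16 in fipronil rats, against 0.15, 0.53 and 0.95 in vehicle rats. No fipronil rat overlapped with a vehicle rat, which held in this direction for 87 of all probes tested (0.374%). In intensity units the spots read from 1408 to 3655 in fipronil rats and from 167.1 to 378.8 in vehicle rats, above background on all 15 arrays and saturated on none. Mean Ces2c signal was 3.52 ± 0.47 in fipronil rats and 0.51 ± 0.27 in vehicle rats (SD, n = 8 and 7). The difference was 3.01 on the log2 scale (SE 0.19, limma adjusted p = 9.33e-08), an 8.07-fold rise with a 95% interval of 6.12 to 10.7. With array brightness as a covariate it was 2.95 (SE 0.24, adjusted p = 8.05e-06).

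Within slides the Ces2c difference was 3.19, 2.84, 2.28 and 3.67 for slides 1 to 4. Slide 3 gave the smallest and slide 4 the largest, and slide 3 held only 1 vehicle rat. The authors' deposited value table, which carries no background subtraction, gave 2.76 (SE 0.20) from the same arrays.

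Ces2a, known in older annotation as Ces6, is a CES2-type esterase whose mouse counterpart is among the genes raised by PXR activators. The RefSeq annotation of GRCr8 classes rat Ces2a as a transcribed pseudogene and the other 5 genes as protein coding. Its probe (NM_144743) lies on chromosome 19 at 39893 to 40072 of rn4. Ces2a signals were 6.04, 6.69 and 6.94 (lowest, median, highest) in fipronil rats, against 3.39, 4.05 and 4.45 in vehicle rats. The groups were again fully separated. Spot intensities ran from 15070 to 25010 in fipronil rats and from 1666 to 4285 in vehicle rats, none of them saturated. Mean Ces2a signal was 6.60 ± 0.30 in fipronil rats and 4.03 ± 0.35 in vehicle rats (SD, n = 8 and 7). This was a difference of 2.57 (SE 0.16, limma adjusted p = 9.33e-08), or 5.93-fold with a 95% interval of 4.70 to 7.49. With array brightness as a covariate it was 2.56 (SE 0.20, adjusted p = 6.65e-06). Within slides it was 2.31, 2.44, 3.03 and 2.82 for slides 1 to 4, so for Ces2a the largest within-slide difference came from the slide that gave the smallest for Ces2c.

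Ces2e was read by a probe named Ces5 in the array design, an older symbol that RefSeq gives for both Ces2e and Ces5a. The probe lies on chromosome 19 at 78706 to 78765 of rn4, close to that of Ces2a, while Ces5a had its own probe elsewhere on the chromosome. It was assigned to Ces2e by that symbol, which only Ces2e carries among the members. Position did not enter the assignment, and no probe sequence was at hand. Ces2e signals in fipronil rats 1 to 8 were -0.03, 4.96, 4.65, 4.52, 4.43, 4.15, 4.98 and 4.88. In vehicle rats 1 to 7 they were 3.73, 3.82, 3.81, 3.88, 3.89, 3.68 and -0.48. All but 1 rat of each group thus fell in narrow ranges, and 7 of 8 fipronil rats lay above the highest vehicle rat. Fipronil rat 1 and vehicle rat 7 read 203.5 and 82.86 intensity units, still well above background, while the other 13 rats read between 2065 and 8369.

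The higher of these 2 rats lay 3.70 log2 units, or 13-fold, below the lowest of the other 13. Among 23169 probes with no missing value, Ces2e was the 1 probe at which both rats lay over 1 log2 unit below all others, and 0 probes had both that far above all others. The rats were picked by their Ces2e values, so Ces2e had to be counted. Counts for other pairs of rats are not given. Slides differed between the rats, fipronil rat 1 being on slide 1 and vehicle rat 7 on slide 4. What set their Ces2e signal apart was not tested.

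Over all 15 rats mean Ces2e signal was 4.07 ± 1.68 in fipronil rats and 3.19 ± 1.62 in vehicle rats (SD, n = 8 and 7). The difference of 0.88 had an SE of 0.77 and a 95% interval of -0.75 to 2.50, and was not called (limma adjusted p = 0.604). Leaving out fipronil rat 1 alone gave 1.46 and leaving out vehicle rat 7 alone gave 0.26, so either rat moved the value by over 1.5 times. Within slides 1 to 4 it was -1.31, 0.74, 0.40 and 3.33, with the extremes on the slides that held these 2 rats. With array brightness as a covariate it was -0.24 (adjusted p = 0.971).

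Without both rats, Ces2e signals were 4.15, 4.65 and 4.98 (lowest, median, highest) in 7 fipronil rats, against 3.68, 3.82 and 3.89 in 6 vehicle rats. Means were 4.65 ± 0.31 in fipronil rats and 3.80 ± 0.09 in vehicle rats (SD), and the groups did not overlap. In these 13 rats 108 probes were separated in the same direction (0.464%). The difference was 0.85 (SE 0.13), a 1.80-fold rise with a 95% interval of 1.49 to 2.18 (limma adjusted p = 0.00944), beside 57 probes called higher (0.245%). With brightness as a further covariate it was 0.72 (SE 0.14, adjusted p = 0.119) and was not called. The choice to set these rats aside was made after their values were seen, so the 13-rat value is a description of those rats.

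**Figure D2:**
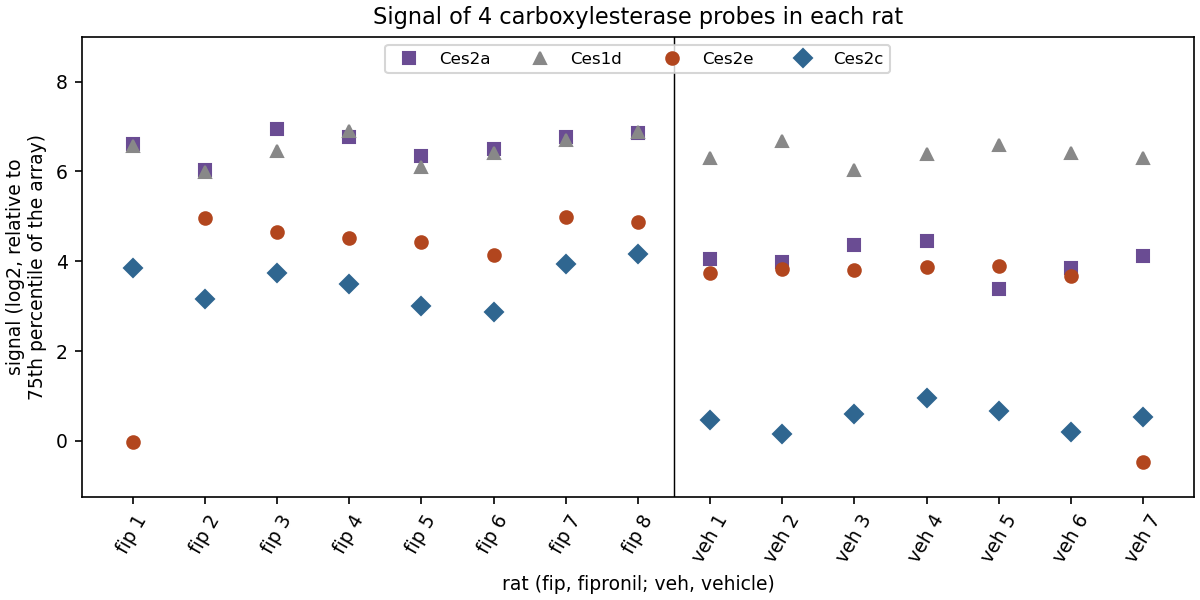
Signal of the Ces2a, Ces1d, Ces2e and Ces2c probes (log2, relative to the 75th percentile of the array) in each of the 15 rats, fipronil rats 1 to 8 on the left and vehicle rats 1 to 7 on the right of the line. One point is 1 probe in 1 rat, and heights are comparable between rats for a probe but not between probes. Ces2e drops to -0.03 in fipronil rat 1 and to -0.48 in vehicle rat 7, where the other 3 probes keep within their groups.

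The Ces1 members showed no call. Ces1d, the older Ces3, is known in mouse as the triacylglycerol hydrolase that mobilises stored triglyceride for lipoprotein assembly. Its probe (NM_133295, chromosome 19, 14966943 to 14967002 of rn4) also lists the transcript of Ces1dl1 and may read both. Ces1d signals were 5.99, 6.50 and 6.91 in fipronil rats (lowest, median, highest), against 6.03, 6.38 and 6.68 in vehicle rats. The groups overlapped, with 3 of the 8 fipronil rats above the highest vehicle rat and 1 below the lowest. Means were 6.50 ± 0.33 in fipronil rats and 6.39 ± 0.22 in vehicle rats (SD). The difference was 0.11 (SE 0.14, 95% interval -0.19 to 0.41, limma adjusted p = 0.743). Its sign differed between slides, at -0.21, 0.48, -0.35 and 0.42 for slides 1 to 4.

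Ces1e corresponds to mouse egasyn, the esterase that holds beta-glucuronidase in the endoplasmic reticulum. The first Ces1e probe (NM_031565, chromosome 19, 14922573 to 14922632 of rn4) gave 5.41, 5.86 and 6.06 in fipronil rats, against 5.63, 5.78 and 6.08 in vehicle rats. Fipronil rats spread slightly wider, and 0 of the 8 lay above the highest vehicle rat. The difference was 0.04 (SE 0.11, 95% interval -0.19 to 0.28, limma adjusted p = 0.879). The probe for Gusb, the beta-glucuronidase gene, differed by 0.09 (adjusted p = 0.623).

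The second probe named for Ces1e (chromosome 19, 14874630 to 14874689 of rn4) was designed on an ES-4 esterase mRNA, X81825. It shares that entry with the probe of Cesl1, another carboxylesterase gene, and its deviations from the group means followed those of the Cesl1 probe to a root mean square of 0.06 log2 units. Their own within-group SDs were 0.26 and 0.29, so the 2 probes were nearly interchangeable here, and which gene they read is uncertain. Against the first Ces1e probe the same measure was 0.34. The second probe gave 5.29, 5.96 and 6.23 in fipronil rats, against 5.19, 5.71 and 5.97 in vehicle rats. The difference was 0.21 (SE 0.14, 95% interval -0.09 to 0.51, limma adjusted p = 0.469), and Cesl1 itself differed by 0.15 (SE 0.15, adjusted p = 0.669).

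Ces1c, the older Es2, is the carboxylesterase that mouse liver secretes into plasma. Its dimmer probe (NM_017004, chromosome 19, 14992137 to 15012700 of rn4) spans 20564 bases of genome, as for a probe placed across introns. That probe also lists the transcript of probe A_44_P262879, described as similar to the liver esterase ES-1, and may read both. Signals were 5.81, 6.34 and 6.72 in fipronil rats, against 5.93, 6.04 and 6.36 in vehicle rats. Of the 8 fipronil rats, 4 lay above the highest vehicle rat and the lowest of all rats was also a fipronil rat. The difference was 0.23 (SE 0.13, 95% interval -0.04 to 0.51, limma adjusted p = 0.380), positive on each slide at 0.07, 0.41, 0.13 and 0.29. The brighter probe (chromosome 19, 15020983 to 15021042 of rn4) was saturated in 8 of 8 fipronil rats and 7 of 7 vehicle rats, so no fold is given for it. Its measured means were 8.32 ± 0.25 in fipronil rats (SD, n = 8) and 8.53 ± 0.28 in vehicle rats (SD, n = 6, with 1 outlier spot left out).

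The members changed by unequal amounts. For each of 15 pairs of genes the within-array log2 ratio of 2 probes was compared between groups by an exact permutation test over 6435 splits, two-sided and adjusted over the 15 pairs. In 6 pairs the adjusted p was under 0.05, and all 6 set Ces2c or Ces2a against a Ces1 gene. Ces2c exceeded the change of Ces1e, Ces1d and Ces1c by 2.97, 2.90 and 2.78 log2 units. For Ces2a the corresponding values were 2.52, 2.46 and 2.34. Each of these 6 had p = 0.000155, the smallest the splits allow, and adjusted p = 0.000389 (exact permutation test). Because Ces2c and Ces2a were already known to have changed most in these data, those tests describe the size of the gap and are no independent evidence.

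Ces2c and Ces2a themselves differed in change by 0.44, which did not pass after adjustment (exact permutation p = 0.0328, adjusted p = 0.0615). It was 0.12 under normexp and quantile normalization and 0.20 in the authors' deposited table. Their ratio was -3.08 ± 0.33 in fipronil rats and -3.53 ± 0.37 in vehicle rats (SD, n = 8 and 7). Among Ces1 genes, no pair passed: Ces1e over Ces1c differed by -0.19 (adjusted p = 0.210), Ces1d over Ces1c by -0.12 (adjusted p = 0.540) and Ces1e over Ces1d by -0.07 (adjusted p = 0.581), all by the exact permutation test. Pairs with Ces2e depended on the scaling and on the 2 rats set apart. Over all 15 rats the difference was -2.14 for Ces2e over Ces2c (exact permutation adjusted p = 0.0536) and 0.77 for Ces2e over Ces1d (adjusted p = 0.539). Ces2e over Ces2c passed under normexp and quantile normalization (-1.91, exact permutation adjusted p = 0.0443) and in the authors' deposited table (-2.01, adjusted p = 0.0370). Ces2e over Ces2a, at -1.69 (adjusted p = 0.119), passed under the first of these (-1.79, adjusted p = 0.0495). Without fipronil rat 1 and vehicle rat 7 the exact permutation test ran over 1716 splits. There Ces2e over Ces2c differed by -2.12 (exact permutation adjusted p = 0.00125) and Ces2e over Ces2a by -1.73 (adjusted p = 0.00194). The value for Ces2e over Ces1d was 0.76 (adjusted p = 0.00524). In those 13 rats 11 of the 15 pairs passed, including all 5 that held Ces2e.

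**Figure D3:**
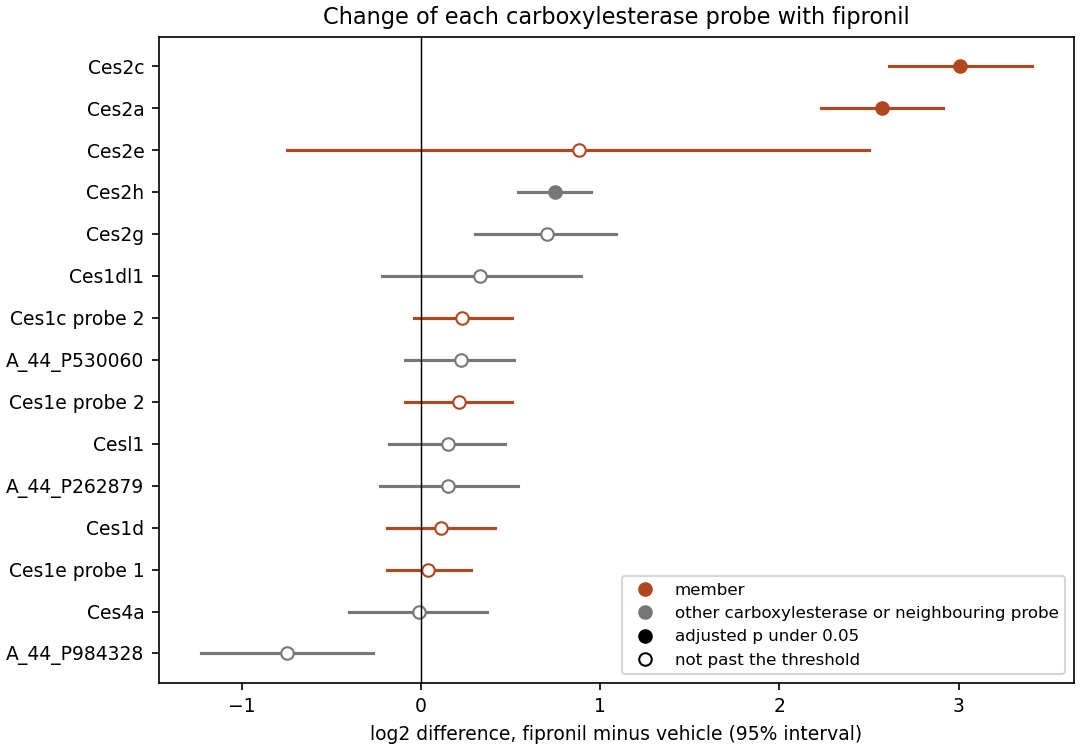
Log2 difference, fipronil minus vehicle (points), with the 95% interval of the limma fit (lines) for member probes in red and other carboxylesterase or neighbouring probes in grey. Filled points passed an adjusted p of 0.05 over all 23259 probes, which held for Ces2c, Ces2a and Ces2h, and the saturated Ces1c probe is left out. The interval of Ces2e, -0.75 to 2.50, is the widest and comes from all 15 rats.

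Of the 10 further probes, 8 were tested and 1 passed. That was Ces2h (LOC498940 in the array design, chromosome 19, 34922515 to 34922838 of rn4), a further member of the Ces2 subfamily. Ces2h signals were 1.63, 1.81 and 2.19 in fipronil rats, against 0.88, 1.09 and 1.29 in vehicle rats. Again the groups did not overlap. The difference was 0.75 (SE 0.10, limma adjusted p = 0.000817), a 1.68-fold rise with a 95% interval of 1.45 to 1.93. Array brightness as a covariate left it at 0.75 (adjusted p = 0.0130).

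Ces2g, near Ces2h on chromosome 19 (34886630 to 34887626 of rn4), averaged -1.80 ± 0.30 in fipronil rats and -2.50 ± 0.47 in vehicle rats (SD, n = 8 and 7). All 8 fipronil rats lay above the vehicle mean, but the difference of 0.70 (SE 0.19) missed the threshold (limma adjusted p = 0.0883). With slide as a block it was 0.72 and passed (adjusted p = 0.0383), and in the fit that included array brightness it was 0.55 (adjusted p = 0.516). It was 0.31 under normexp and 0.34 in the authors' deposited table. Ces4a, at -0.24 ± 0.43 in fipronil rats and -0.23 ± 0.30 in vehicle rats, differed by -0.01 (SE 0.18, adjusted p = 0.982), a sign that turned under other scalings. Ces1dl1 differed by 0.33 (SE 0.26, adjusted p = 0.549). Ces5a, a secreted esterase known from kidney and epididymis, and Ces2c-ps2 were above background on no array. Probe A_44_P530060, described only as similar to a liver carboxylesterase, differed by 0.22 (adjusted p = 0.464), and A_44_P262879 by 0.15 (adjusted p = 0.716). The unannotated probe A_44_P984328, on chromosome 19 at 37669 to 37728 beside that of Ces2a, was singled out for its position. It ran the other way, at -3.13 ± 0.33 in fipronil rats and -2.37 ± 0.60 in vehicle rats (difference -0.75, SE 0.23, adjusted p = 0.123). That difference was -0.26 under normexp, -0.29 in the authors' deposited table and -0.37 in the fit that included array brightness. Ces1a, Ces1b, Ces1f, Ces1g, Ces2b, Ces2d, Ces2f, Ces2i, Ces2j and Ces3a had no probe under their names.

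Other hydrolases of drugs and lipids were counted alongside, with the brightest tested probe standing for each gene. Of 34 genes tested in 3 lists, limma called 0, beside 0.821% of all probes tested, so a count of 0 is near that share. An unadjusted p under 0.05 was found for 6, beside 17.2% of all probes tested. Among 12 drug esterases and amidases the median difference was 0.06. Esd, the S-formylglutathione hydrolase, differed by 0.25 (adjusted p = 0.171), the paraoxonase Pon1 by 0.17 (adjusted p = 0.245) and the valacyclovir hydrolase Bphl by 0.26 (adjusted p = 0.248).

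The 15 lipases tested had a median of -0.04. Pnpla3, a lipid droplet protein, averaged 1.90 ± 0.76 in fipronil rats and 3.06 ± 0.68 in vehicle rats (SD, n = 8 and 7). Its difference of -1.16 (SE 0.34) did not pass (limma adjusted p = 0.116). Lipc, the hepatic lipase, differed by 0.30 (adjusted p = 0.170) and the phospholipase Pnpla8 by 0.25 (adjusted p = 0.291). Among 7 acyl-CoA thioesterases, which release fatty acids from coenzyme A, the median was -0.09. There Acot2 differed by -0.29 (adjusted p = 0.314), Acot3 by -0.35 (adjusted p = 0.344) and Acot8 by 0.20 (adjusted p = 0.366).

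The messenger RNA of 7 regulators known for carboxylesterase genes showed no call, beside 0.821% of all probes tested, with a median difference of 0.01. Of the 7, 1 had an unadjusted p under 0.05, beside 17.2% of all probes tested. Ppara, the receptor for fatty acids and fibrates, differed by 0.37 (limma adjusted p = 0.225), and Nfe2l2, which encodes the stress regulator NRF2, by -0.07 (adjusted p = 0.846). Nr1i2, which encodes PXR, differed by -0.03 (adjusted p = 0.934), a sign that turned with array brightness as a covariate. Nr1i3, which encodes CAR and was named after its value was seen, averaged -1.18 ± 0.42 in fipronil rats and -1.20 ± 0.35 in vehicle rats (SD).

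**Figure D4:**
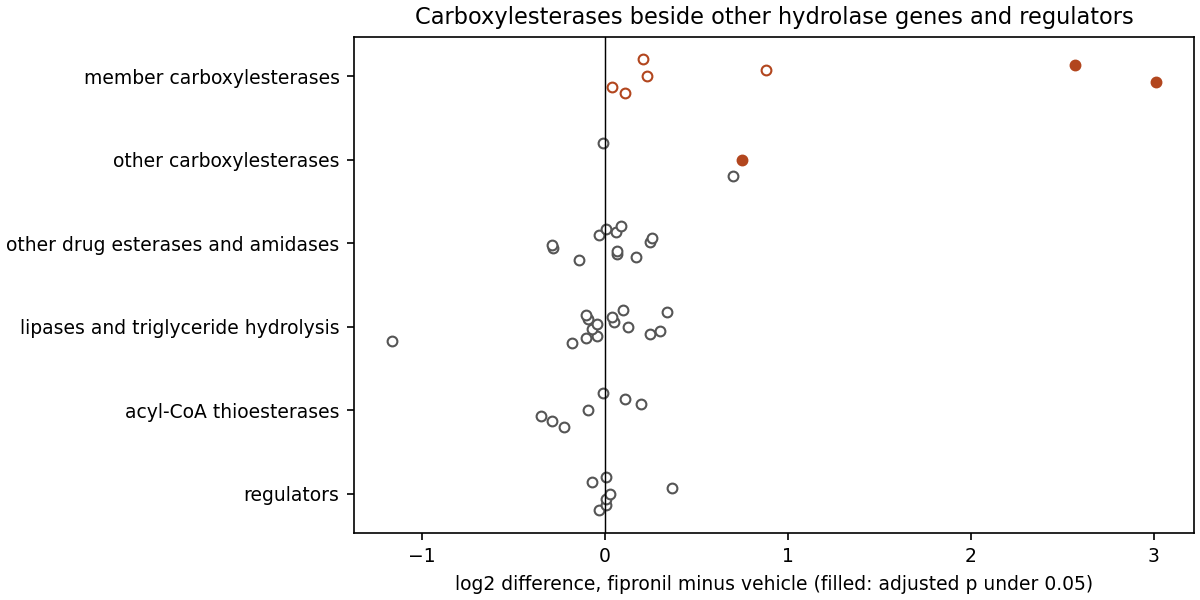
Log2 difference, fipronil minus vehicle, of each tested gene or member probe, grouped by list. One point is 1 gene (1 probe for the members), and filled points passed an adjusted p of 0.05 over all probes. The filled points, Ces2c, Ces2a and Ces2h, are all carboxylesterases, and the lowest point, at -1.16, is Pnpla3.

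To see which genes behaved most like the risen members, profiles over the 15 arrays were centred on their vehicle means and compared with 14005 named probes by the root mean square difference. Nearest to Ces2c were Slco1a6 (0.50 log2 units), Slco1a4 (0.52) and Gadd45b (0.55). Nearest to Ces2a were Gadd45b (0.37), Ugt1a1 (0.37) and Slco1a4 (0.38). Slco1a4 and Slco1a6 encode organic anion transporters, Ugt1a1 the enzyme that conjugates bilirubin, and Gadd45b a stress-inducible protein of cell growth control. Their own rises, which the measure selects for, were 5.85-fold for Slco1a6, 5.77-fold for Slco1a4, 5.54-fold for Gadd45b and 4.75-fold for Ugt1a1. For Slco1a6 the log2 difference of 2.55 was 1.80 under normexp and 1.95 in the authors' deposited table.

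Markers of 7 cell types were compared as a check on the makeup of the liver samples. Of 25 markers tested, limma called 0, beside 0.821% of all probes tested, and 7 had an unadjusted p under 0.05, beside 17.2%. Among those 7 were Alb, Ttr and Serpina1, saturated on every array, so the count cannot be weighed against the 17.2%. All 6 hepatocyte markers had negative differences, with a median of -0.23 and a smallest adjusted p of 0.193 (Ttr). Alb, Ttr and Serpina1 were saturated throughout, and Apoa1 in 8 of 8 fipronil rats and 3 of 7 vehicle rats. A capped spot reads lower relative to a brighter array, so no direction is taken from these probes or from that median. Tat and Cps1, which were saturated in no rat, gave only -0.14 (SE 0.12) and -0.02 (SE 0.13). The summed linear signal of all 6 was 1060 to 1510 in fipronil rats, against 1310 to 2250 in vehicle rats, a sum that saturation limits. Of the endothelial markers, Stab2 differed by 0.42 (adjusted p = 0.105), Lyve1 by 0.52 (adjusted p = 0.147) and Kdr by 0.29 (adjusted p = 0.291), all with an unadjusted p under 0.05. Endothelial sums were 67.2 to 128 in fipronil rats, against 56.1 to 76.9 in vehicle rats. Among cholangiocyte markers Epcam differed by 0.51 (adjusted p = 0.126), while Krt19 differed by -0.14 (adjusted p = 0.815) and Krt7 by -0.23 (adjusted p = 0.801). Sums of Kupffer cell markers were 52.1 to 117 in fipronil rats and 37.8 to 132 in vehicle rats, and those of stellate cells 25.9 to 42.7 in fipronil rats and 25.8 to 41.8 in vehicle rats. Cholangiocyte sums were 1.59 to 2.88 in fipronil rats and 1.10 to 2.25 in vehicle rats. For intestine, which also expresses Ces2 genes, and pancreas, sums were 4.03 to 8.30 in fipronil rats and 3.00 to 6.86 in vehicle rats, and the pancreatic markers Prss1 and Amy2a3 were above background on no array. The T cell marker Cd3e was likewise above background on no array. Any part of cell makeup in the carboxylesterase differences was not tested.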

How the data were processed

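Spot intensity values were deposited as written by Agilent Feature Extraction 9.5.3.1, per the file headers. Processed intensity was background subtracted, detrended and replaced by a surrogate at dim spots, with no normalization between arrays, per the file headers. The authors also deposited a log2 value table of 22244 probes. Limma and Feature Extraction 9.5 are named in the submitters' processing notes. That table's column medians (7.651 to 7.661) and its rank correlation of at least 0.99999 with median spot intensity show log2 median intensity, quantile normalized, without background subtraction.

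Outlier spots were left out, and log2 processed intensity was set relative to the 75th percentile of each array. Probes well above background on at least 7 arrays, with at most 3 values missing, were tested one by one (23259). Fipronil rats were compared with vehicle rats by the moderated two-sided test of limma 3.58.1 in R 4.3.3 (functions lmFit and eBayes), after a check of the fit on simulated data, at a Benjamini-Hochberg adjusted p under 0.05 over all probes tested. SD is over rats, SE is that of the fitted difference, and intervals are at the 95% level. The number of arrays limits the precision.

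Coordinates of probes refer to rn4, the build given in the file headers. Without a genome of that build, exons and related sequences under a probe were not examined. Symbols came from a RefSeq table of GRCr8, used for names only: 10768 of 41012 probes matched by accession, 215 by another accession, 4372 by symbol, 2993 by older symbol and 2875 by gene number, and 19789 stayed unnamed. Replicate numbers of the labels were not taken to pair rats, since only 3 of 7 same-numbered pairs had deviations that correlated above 0.1 (range -0.0429 to 0.366). Same-numbered rats shared a slide, except number 6, so these correlations cannot separate slide from any pairing.

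The members and the lists of other genes were chosen with earlier results of these data known. Every member probe was described. From each list of hydrolases and regulators the genes called were named, otherwise up to 3 with the smallest p, and every other carboxylesterase with a probe. The nearest patterns were the 3 probes with the smallest root mean square difference. Gusb, Nr1i3, the cell type markers given by name and the neighbour of Ces2a were named outside this rule, after their values were seen. Alternatives changed background correction, scaling, dim-probe filter, outlier spots, array weights, array brightness, slide, replicate block, probes per gene, or left out rats or slides. The summed level of the blood cell markers is not reported here.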

Additional observations from a re-analysis of the deposited data

Results flagged for a closer look

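In 16 groups of values (8 member probes, each in fipronil and in vehicle rats), a rat was looked for whose distance to its nearest neighbour took up an unusually large share of the range of its group. Chance alone marks about 1 in 20 such groups, and 3 were marked here. At the Ces2e probe, fipronil rat 1 (signal -0.03) lay so far below the other fipronil rats that the gap made up 0.835 of their range. At the same probe, vehicle rat 7 (signal -0.48) lay below the other vehicle rats with a gap of 0.95 of their range. These are the 2 rats without which Ces2e passed the threshold, and the cause of their low signal was not tested. The second probe named for Ces1e had its lowest fipronil value in rat 6 (signal 5.29), with a gap of 0.575 of the range. Without that rat the difference at this probe was 0.30 in place of 0.21. The same rat was lowest among fipronil rats at Cesl1 (5.09).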

How the results depend on the processing

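The Ces2c difference ranged from 2.66 to 3.23 and that of Ces2a from 2.46 to 2.65 over 34 alternatives, with adjusted p from 2.48e-08 to 0.000138 for Ces2c and from 2.43e-08 to 0.000138 for Ces2a. Leaving out 1 rat at a time, replicate by replicate, gave 2.92 to 3.11 for Ces2c, 2.46 to 2.65 for Ces2a, 0.26 to 1.46 for Ces2e, 0.05 to 0.18 for Ces1d, 0.01 to 0.11 for the first and 0.12 to 0.30 for the second Ces1e probe, and 0.17 to 0.30 for the dimmer Ces1c probe. Ces2e turned to -0.24 in the fit that included array brightness (adjusted p = 0.971) and to -0.05 without slide 4 (adjusted p = 0.989), and was 0.85 and called (adjusted p = 0.00944) without fipronil rat 1 and vehicle rat 7. The cause of these shifts beyond the 2 rats was not tested. Without slide 2, Ces1d turned to -0.02 (adjusted p = 0.957) and the first Ces1e probe to -0.04 (adjusted p = 0.900). In the fit that included array brightness, Ces1d was 0.22 and the first and second Ces1e probes were both 0.20. The dimmer Ces1c probe was 0.41 there, beside 0.23 in the main fit. None of these was called (limma adjusted p = 0.793, 0.697, 0.825 and 0.423).

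The saturated Ces1c probe, at -0.22, turned to 0.02 with quantile normalization (adjusted p = 0.940), to 0.08 with brightness as a covariate (adjusted p = 0.869) and to 0.11 with that covariate in 13 rats (adjusted p = 0.842), and no direction is read from it. Ces4a turned to 0.01 under normexp, 0.04 in the authors' deposited table, 0.22 with brightness and 0.12 in 13 rats (adjusted p = 0.977, 0.943, 0.836 and 0.848). Nr1i2 turned to 0.15 with brightness and 0.09 in 13 rats (adjusted p = 0.851 and 0.852). With slide as a block Ces2g passed (0.72, adjusted p = 0.0383). That made 2 calls in place of 1 (Ces2h) in the 4 hydrolase lists, with the list of other carboxylesterases included. Pairs of members that passed numbered 11 in 13 rats, 8 under normexp and 7 in the authors' deposited table, in place of 6.

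The number of probes called, 191, was 90 with no dim-probe filter, where more probes were tested. It was 42 with array brightness as a covariate, 37 without slide 1, 45 without slide 4, 76 in 13 rats and 30 in 13 rats with brightness. Leaving out single rats gave 102 (without fipronil rat 8) to 307 (without vehicle rat 3). With the replicate block the count was 97, over numbers that both groups share, and no member's call changed. Of the fipronil rats, 3 correlated best with the vehicle rat of their own number. Slide and number were not separated in that count.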

Other observations

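Some pairs of carboxylesterase probes deviated alike from rat to rat within groups. Deviations from the group means at the dimmer Ces1c probe and at A_44_P530060 differed by a root mean square of 0.10 log2 units, where their own SDs were 0.24 and 0.27. Ces2c and Ces2g differed by 0.26 (SDs 0.36 for both). Ces2c and Ces2a differed by 0.32 (SDs 0.36 and 0.30), where unrelated deviations would differ by more than either SD. That was not particular to these risen genes, since Ces2a differed by 0.28 from the first Ces1e probe, which was not called. Over all pairs compared, the values ran from 0.06 to 1.81. The probes of such a pair share the array and its scaling, and no p is given.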
